A study of Solanum lycopersicum with 10 samples.

Results

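The 41 loci described here are listed as nuclear genes of the tomato photosynthetic apparatus: chlorophyll a/b binding proteins of the light-harvesting antennas, photosystem proteins, plastocyanin and the small subunit of Rubisco. They were chosen by identifier, and all 41 were among the 35767 loci of the deposited table. As background, the chlorophyll a/b binding proteins carry the pigments that gather light and pass its energy to the 2 photosystems, plastocyanin carries electrons to photosystem I, and Rubisco, built from nuclear small subunits and plastid large subunits, fixes carbon dioxide. In plants, these nuclear genes are induced by light, are expressed mainly in green tissue and often follow the circadian clock. Several belong to families of near-identical neighbouring copies.

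Transcripts were measured with a 3' end sequencing kit in line M82 of Solanum lycopersicum, in 4 groups from 2 experiments. Leaf primordia of leaf 5 at the P5 stage were collected, 15 to a sample as the protocol describes it, from greenhouse plants aged 3 weeks after a spray with 1 µM picloram for 3 h (n = 3 libraries) or with mock (n = 3). Root tips of 1 cm were cut from seedlings that grew on plates under continuous light at 22 °C and that, 4 days after germination, had been moved to 1 µM 2,4-D for 3 h (n = 2) or had been given mock (n = 2). Picloram and 2,4-D are synthetic auxin analogs, the labels give the same line for every group and name no other allele, and nothing in the labels says whether libraries of a group came from separate cultures or plants, so p-values measure the spread between these libraries.

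Values are normalized counts as the authors deposited them, with library totals of 1.83 M to 2.06 M in leaf and 2.83 M to 2.96 M in root. To be tested, a locus needed 10 or more normalized counts in 2 or more leaf libraries (for leaf) or root libraries (for root), and it was called at an adjusted p under 0.05 (limma, 2-sided, Benjamini-Hochberg over all loci tested). Every fold change is a difference of log2(value + 1), which understates the change of low loci. The tables used here pair no identifier with a gene name, so each locus is named by its identifier, and no single role is given to it. On the chromosome that the identifier names, RefSeq (SLM_r2.1) lists at least 1 symbol of these families for 38 of the 41 loci, among them CAB, RBCS, PSB and PETE symbols, and none for the other 3. That is a match of chromosomes and not of genes. By their numbers, 18 loci fall into 5 runs of neighbours, and 23 stand alone. No locus had values equal to those of another locus in all 10 libraries. Reads of near-identical neighbours can still have been divided between them, so single values within a run are uncertain and run sums are given beside them.

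Most of these transcripts were far higher in leaf than in root. In mock leaf primordia its summed level was 34806, 37079 and 34093 normalized counts, and in mock root tips it was 1654 and 1909. The leaf sums made up 1.79%, 1.8% and 1.76% of the library totals, and the root sums 0.056% and 0.0664%. Of the 41 loci, 39 were tested, and 32 of these passed the minimum in leaf only, so that they had to be higher there, and their calls are a description. The 2 untested loci were near 0 in both tissues, and 1 of them, Solyc07g017950, had 0, 0 and 0.827 in mock leaf and 4.21 and 1.12 in mock root. The 39 tested were called higher in mock leaf and 0 were called lower, where 62.5% of all 15761 loci tested were called, 29.8% higher and 32.7% lower. The libraries did not overlap for any of the 39, where 35.2% of all loci tested were higher without overlap. Among the 32 that passed in leaf only, Solyc02g063150 stood at 1854, 1810 and 1658 normalized counts in mock leaf and at 0 and 4.43 in mock root (log2 fold change 9.57). Solyc02g070940, also among the 32, stood at 1027, 1379 and 1700 in mock leaf and at 0 and 10.5 in mock root (8.63). Solyc05g056070 had 307, 442 and 426 in mock leaf and was listed at 0 in every root library, as was Solyc06g069000, the lowest of the 39 in leaf (21.7, 8.27 and 13.4). In all, 5 loci were listed at 0 in every root library and 9 in both mock root libraries. The median log2 fold change of 7.37, against -0.08 over all loci tested, therefore depends on the pseudocount and was 5.98 with a pseudocount of 5. All 39 calls were kept in every alternative run in which the locus was tested. For the 32 loci that passed the minimum in leaf only, this too is a description. With equal library totals the median of all loci moved to 0.51 and the share of calls that were higher in leaf to 68.9%, in place of 47.6%.

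In the 41 leaf profiles the levels ranged widely. Solyc03g034220 was the most abundant, with a mean of 4489 ± 427 normalized counts under picloram and 6108 ± 603 in mock (SD, n = 3 each), and it alone held 19.4% and 17.3% of the summed level. Next came Solyc07g047850, Solyc06g082940, Solyc02g085950 and Solyc07g044860, with mock means of 3069 ± 17.1, 2848 ± 831, 2692 ± 172 and 1894 ± 218 (SD, n = 3). The means of Solyc07g047850 and Solyc02g085950 both lie within the SD of Solyc06g082940, so the order of Solyc06g082940 against either is not set in mock. The 10 loci of highest leaf mean made up 68.1% ± 1.86 of the summed level under picloram and 68.3% ± 2.61 in mock (SD, n = 3 each). At the low end, Solyc08g067330 and Solyc07g017950 did not reach 10 normalized counts in any library and were not tested. A kit that reads transcript ends gives about 1 fragment per transcript, so levels are compared between loci without a correction for length.

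**Figure D1:**
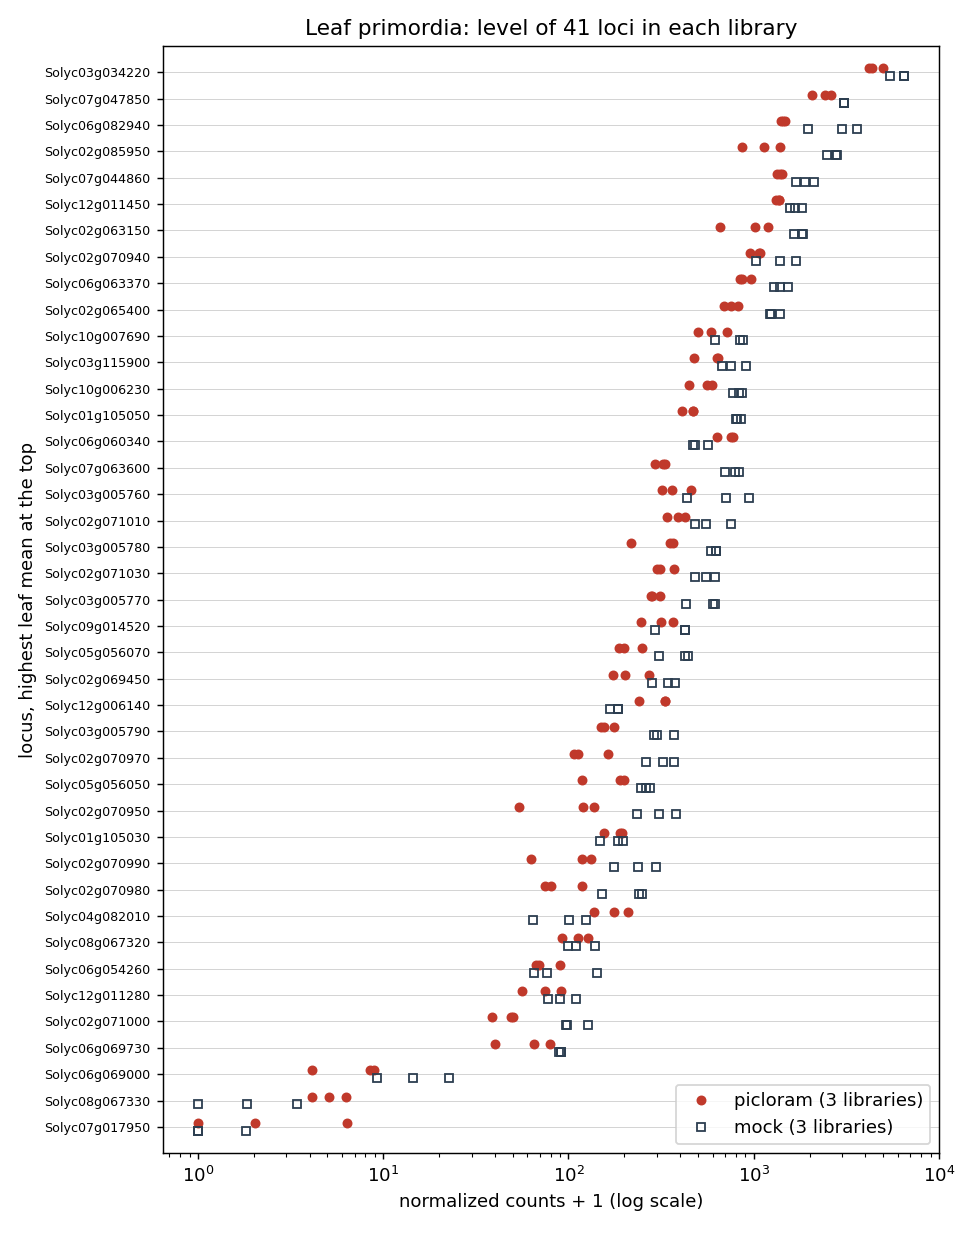
Normalized counts plus 1, on a log scale, of the 41 loci in each of the 3 picloram libraries (filled circles) and 3 mock libraries (open squares) of leaf primordia, ordered by mean leaf level. For most loci the 3 picloram points lie left of the 3 mock points, while Solyc12g006140, Solyc06g060340, Solyc04g082010 and the untested Solyc08g067330 show the reverse.

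After 3 h of picloram the photosynthesis transcripts of leaf primordia were lower. The summed level of the 41 loci was 20560, 24296 and 24666 normalized counts under picloram, against 34806, 37079 and 34093 in mock, or 65.6% of the mock mean. The groups did not overlap, and the difference was far wider than the spread within either group (SD 2271 under picloram and 1560 in mock, n = 3 each). In bulk tissue, fewer green cells and less of these transcripts per cell cannot be told apart. The median log2 fold change of the 39 tested loci was -0.65, against 0.00 over all 14410 loci tested in leaf, and 35 of the 39 estimates were below 0. In 28 of the 39, or 71.8%, every picloram library lay below every mock library, where the same held for 15.3% of all tested loci. In 3, or 7.69%, every picloram library lay above every mock library, against 13.9% of all tested loci, and in 8 the groups overlapped. Picloram library 1 was the lowest of the 3 picloram libraries in 35 of the 39, and without it the median was -0.53.

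How many of these differences passed the test depended on which libraries set the spread. With all 10 libraries in 1 fit, 8 of 39 fell (20.5%, where 5.26% of all tested loci fell) and 0 rose (where 4.89% did, and 10.2% changed either way). At an unadjusted p under 0.05 there were 15 of the 39, against 24.9% of all. With the 6 leaf libraries fitted alone, 23 of 39 fell (59%, where 4.94% of all tested loci fell) and 3 rose (where 5.41% of all did). The fits gave the same fold changes, but the median standard error was 0.434 in the shared fit and 0.172 in the leaf fit. The shared estimate took in root libraries in which these loci were close to 0. There the median SD of the log2 values within groups was 1.12, against 0.255 in leaf, and it was larger in root for 31 of the 39. Solyc02g063150, for example, had an SD of 2.04 in root and 0.318 in leaf. Among the 8 loci called in the shared fit, 3 (Solyc02g070980, Solyc02g071000 and Solyc05g056070) were listed at 0 in all 4 root libraries, which added no spread. Even so, their standard errors were larger in the shared fit (0.299, 0.289 and 0.234) than in the leaf fit (0.224, 0.199 and 0.174). Of the 8, 7 were called in both fits, and Solyc12g011450 was called in the shared fit alone. The shared count was 2 without mock leaf library 2, 4 without mock leaf library 3 and 2, 5 and 4 without picloram libraries 1, 2 and 3, and it was 8 to 11 without any other 1 library. Falls over all loci tested in the shared fit dropped as well, from 758 of 14410. They were 453 of 14232 without mock leaf library 2 and 572 of 14182 without mock leaf library 3. Without picloram libraries 1, 2 and 3 they were 496 of 14176, 466 of 14156 and 499 of 14154. The count of the 39 that fell with leaf fitted alone was 17 to 21 when any 1 leaf library was left out. For that fit the same counts were not made over all loci. With equal library totals 61.7% of all leaf calls were rises, in place of 48.2%, and 7 of the 39 loci fell and 0 rose.

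**Figure D2:**
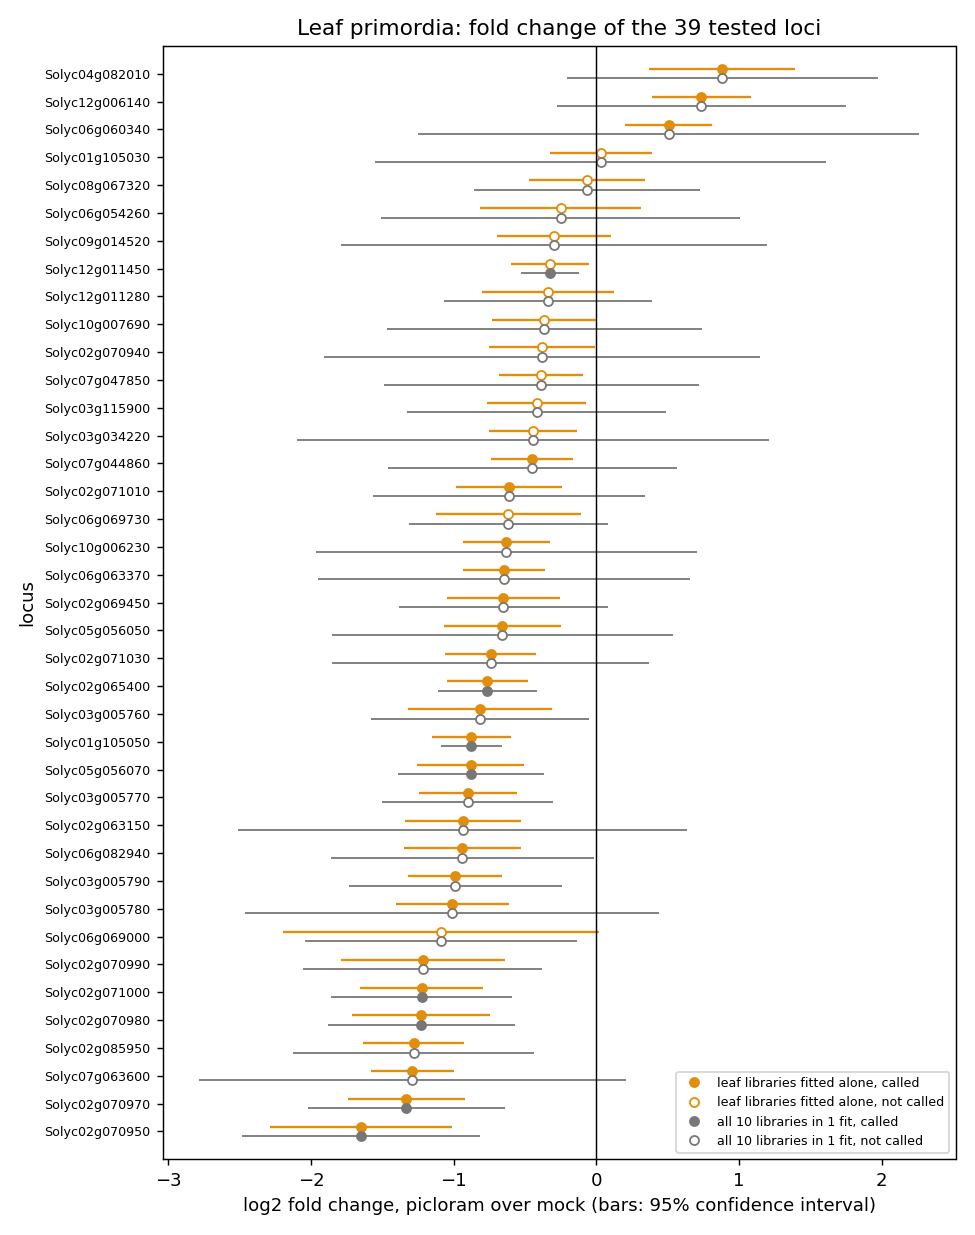
Log2 fold change of picloram over mock for the 39 loci tested in leaf primordia, with 95% confidence intervals, for the leaf libraries fitted alone (upper, orange) and for all 10 libraries in 1 fit (lower, grey); filled points were called. Both fits give 35 estimates below 0, and 8 loci are called lower in the shared fit, and 23 lower and 3 higher in the leaf fit.

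Of the most abundant loci, Solyc02g085950 was the furthest below mock, with 868, 1128 and 1379 normalized counts under picloram against 2497, 2818 and 2762 in mock (log2 fold change -1.28 ± 0.39, SE). It was the uncalled locus closest to the threshold in the shared fit (adjusted p = 0.0579) and fell with leaf fitted alone (adjusted p = 0.0002687). Solyc02g063150 stood at 657, 1015 and 1188 under picloram against 1854, 1810 and 1658 in mock (-0.94, adjusted p = 0.472 in the shared fit and 0.00636 with leaf alone). These loci were at 41.8% and 53.7% of their mock means, with no overlap between groups. Solyc06g082940 had 1471, 1446 and 1397 under picloram against 2978, 3606 and 1959 in mock (-0.94, adjusted p = 0.191 and 0.00643 with leaf alone). Its mock libraries were widely spread, and the lowest of them still exceeded every picloram library.

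The other abundant loci stood closer to mock. Solyc03g034220, first in level, had 4168, 4324 and 4973 under picloram against 6459, 6454 and 5413 in mock (-0.44, adjusted p = 0.774 in the shared fit and 0.0695 with leaf alone). Solyc07g047850 had 2054, 2604 and 2417 under picloram against 3086, 3052 and 3067 in mock (-0.39, adjusted p = 0.693, and 0.0932 with leaf alone). For both the groups did not overlap, yet neither fit called them. Solyc07g044860 had 1332, 1426 and 1384 against 2116, 1885 and 1680 in mock (-0.45, adjusted p = 0.61, and 0.049 with leaf alone). Solyc06g063370 had 846, 863 and 970 against 1535, 1380 and 1291 in mock (-0.65, adjusted p = 0.559, and 0.00684 with leaf alone). In both of these loci all 3 picloram libraries lay below all 3 mock libraries. Solyc02g070940 had 948, 1076 and 1065 against 1027, 1379 and 1700 in mock and overlapped (-0.38, adjusted p = 0.791, and 0.188 with leaf alone).

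Solyc02g065400 and Solyc01g105050 fell in both fits and under every alternative run. Solyc02g065400 had 688, 819 and 757 normalized counts under picloram against 1229, 1379 and 1239 in mock (log2 fold change -0.77 ± 0.16, SE, adjusted p = 0.0103). Solyc01g105050 had 408, 467 and 470 under picloram against 812, 854 and 805 in mock (-0.88 ± 0.10, SE, adjusted p = 0.00027). Both had steady values within each group, and the picloram values of Solyc01g105050 were at 54.5% of the mock mean. Solyc12g011450 had 1315, 1365 and 1362 against 1826, 1679 and 1568 in mock, without overlap (-0.32 ± 0.09, SE, adjusted p = 0.047). It was the called locus closest to the threshold, and its call was lost in 16 of 21 alternatives. The highest adjusted p was 0.41, with quantile normalization within tissue, and with leaf fitted alone it was 0.13. Each omission of 1 leaf library other than mock leaf library 3 also ended the call (adjusted p up to 0.123).

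The longest run of neighbours, 8 loci from Solyc02g070940 to Solyc02g071030 on chromosome 2, was lower as a unit. Its sum was 1918, 2362 and 2345 normalized counts under picloram, against 2900, 3831 and 4343 in mock, or 59.8% of the mock mean. The groups did not overlap. Within the run 4 loci fell in the shared fit. Solyc02g070950 had 52.8, 119 and 136 under picloram against 232, 308 and 378 in mock, the lowest fold change of the 39 (-1.65 ± 0.38, SE, adjusted p = 0.0184). Solyc02g070970 (-1.33 ± 0.31, SE, adjusted p = 0.02045), Solyc02g070980 (-1.23 ± 0.30, SE, adjusted p = 0.0238) and Solyc02g071000 (-1.225 ± 0.29, SE, adjusted p = 0.02047) were at 39.9% to 42.3% of their mock means. Each of these 4 had every picloram library below every mock library. Each lost its call without mock leaf library 2 or picloram library 1 (adjusted p up to 0.0962). Without mock leaf library 3 the calls of Solyc02g070950, Solyc02g070970 and Solyc02g070980 were lost (up to 0.0858). Without picloram library 2 that of Solyc02g070980 (0.0873), and without picloram library 3 those of Solyc02g070970 and Solyc02g071000 (0.0771 and 0.0528), were lost as well. Solyc02g070970 also lost its call with a pseudocount of 0.5 (0.0666). In all, the calls of Solyc02g070950, Solyc02g070970, Solyc02g070980 and Solyc02g071000 were lost in 4, 5, 5 and 3 of 21 alternatives. The other 4 loci of the run had log2 fold changes of -1.22 (Solyc02g070990), -0.74 (Solyc02g071030), -0.61 (Solyc02g071010) and -0.38 (Solyc02g070940). With leaf fitted alone 7 of the 8 fell, and Solyc02g070940, the most abundant copy, did not pass.

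The run of 4 loci on chromosome 3, from Solyc03g005760 to Solyc03g005790, had sums of 962, 1280 and 1180 under picloram, against 1785, 2311 and 2431 in mock, or 52.4% of the mock mean. Its 4 log2 fold changes lay between -1.01 and -0.82, none was called in the shared fit, and all 4 fell with leaf fitted alone (adjusted p of 0.001025 to 0.0426). The pair on chromosome 5 summed to 316, 447 and 375 under picloram against 582, 702 and 672 in mock. Within it Solyc05g056070 fell (-0.88 ± 0.23, SE, adjusted p = 0.0346), with 198, 248 and 186 against 307, 442 and 426. Its call was lost without any 1 leaf library other than mock leaf library 1 (adjusted p up to 0.1425). In all it was lost in 8 of 21 alternatives, among them a pseudocount of 0.5 (0.0561) and a block for replicate number (0.0537). Its neighbour Solyc05g056050 had -0.66 (adjusted p = 0.509, and 0.0439 with leaf alone).

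In the pair on chromosome 1 the neighbours differed. Solyc01g105050 fell, as given above, while Solyc01g105030 had 155, 194 and 188 under picloram against 147, 184 and 197 in mock (0.03, adjusted p = 0.988, 95% confidence interval -0.33 to 0.39 with leaf alone). The difference between these neighbours was not tested. The pair on chromosome 8 summed to 94.2, 117 and 130 under picloram against 98.2, 112 and 138 in mock. Nearly all of it came from Solyc08g067320 (-0.07, adjusted p = 0.936, 95% confidence interval -0.47 to 0.34 with leaf alone).

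**Figure D3:**
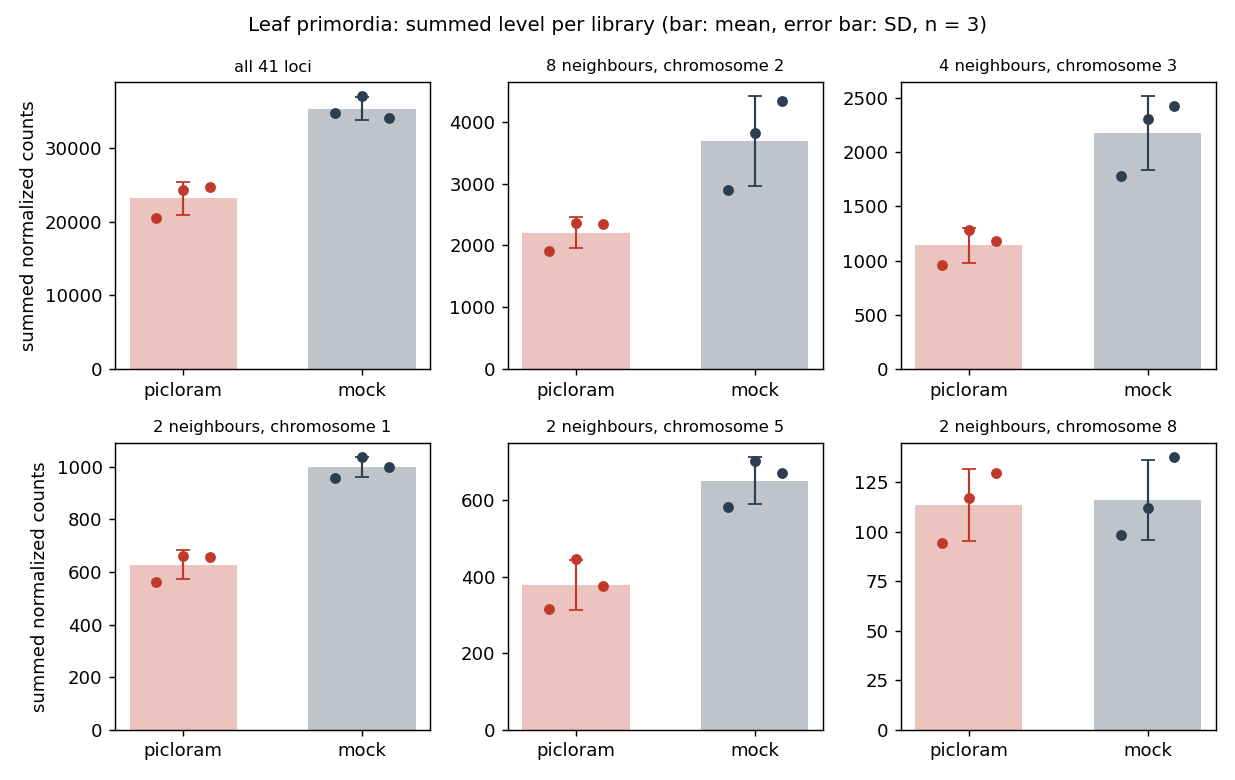
Summed normalized counts in the 3 picloram and 3 mock libraries of leaf primordia, for all 41 loci and for each of the 5 runs of neighbours; bars are means, error bars SDs and points libraries. All sums except that of the pair on chromosome 8 are lower in every picloram library than in any mock library.

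Mock leaf libraries varied along different lines for different loci. The chromosome 2 run was lowest in mock library 1 (2900) and highest in mock library 3 (4343), and the chromosome 3 run had the same order (1785 and 2431). The 23 loci outside runs summed to 28483 and 29086 in mock libraries 1 and 2 and to 25507 in mock library 3, their lowest. The total of all 41 hence varied less between mock libraries, relative to its mean, than either run did.

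Against the rest, 3 of the 39 tested loci were above mock in every picloram library, as was the untested Solyc08g067330 (3.14, 5.26 and 4.11 under picloram, against 0, 2.43 and 0.842 in mock). The 3 were singled out after their values had been seen, and all are outside the runs. Solyc04g082010 had 136, 208 and 176 normalized counts under picloram against 63.1, 123 and 100 in mock (log2 fold change 0.88, adjusted p = 0.303 in the shared fit and 0.0317 with leaf alone). Solyc12g006140 had 239, 332 and 330 under picloram against 183, 167 and 185 in mock (0.73, adjusted p = 0.366 and 0.0109 with leaf alone). Solyc06g060340 had 629, 768 and 756 under picloram against 467, 567 and 480 in mock (0.51, adjusted p = 0.752 and 0.0376 with leaf alone). They rose with leaf fitted alone, but the count of 3 became 1 without mock leaf library 1, 2 without mock leaf library 3, and 0 without picloram library 2 or 3. Solyc06g060340, the 15th in leaf level, was the most abundant of them.

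Solyc07g063600, also singled out after its values had been seen, had the smallest adjusted p of the 39 with leaf fitted alone (5.518e-05). It stood at 293, 330 and 322 under picloram against 695, 793 and 834 in mock, or 40.7% of the mock mean (log2 fold change -1.29, adjusted p = 0.272 in the shared fit). Its root values of 0, 6.1, 0 and 5.6 gave an SD of 1.96 on the log2 scale, against 0.115 in leaf. The loci not called by either fit, apart from those already named, had log2 fold changes of -1.09 (Solyc06g069000) to -0.25 (Solyc06g054260).

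Identifiers of related lists, and of the marker lists, were recalled from the literature and not checked against an annotation. Differences between lists were not tested, and of all loci tested in leaf 4.89% rose and 5.26% fell. Of 15 loci on a list of carotenoid synthesis, the pathway of the accessory pigments, 11 were tested, 3 rose and 0 fell, with a median of 0.18. Of 7 loci on a list of chlorophyll synthesis and greening regulators, 6 were tested, 0 rose and 1 fell, with a median of -0.22. The locus that fell was Solyc12g013710, at 7.06, 4.27 and 5.22 normalized counts under picloram and at 451, 118 and 84.2 in mock (-4.69 ± 0.80, SE, adjusted p = 0.00358). In the clock lists, of 4 tested morning-phased loci 2 rose and 1 fell, and of 4 tested evening-phased loci 0 rose and 3 fell. The summed level of the morning-phased list was 769 to 948 under picloram and 223 to 275 in mock. Most of that difference came from Solyc10g005080, with a mean of 689 under picloram and 81.8 in mock. The locus of that list that fell, Solyc03g081240, had means of 13.2 and 95.6. The summed level of the evening-phased list was 173 to 191 under picloram and 562 to 605 in mock. The labels used here give no hour of collection, and the part of the clock loci in the fall of the photosynthesis loci was not tested. The marker lists were low in leaf. The 4 shoot meristem loci summed to 9.66 to 18.0 under picloram and to 10.3 to 18.1 in mock. Solyc02g083950 of these was at 0 in all libraries, and Solyc11g071380 in all but picloram library 3 (1.03). In root tips the same 4 summed to 3.38 to 16.0, so this list did not set leaf apart. The 2 root iron uptake loci summed to 0.785 to 4.07 under picloram and to 0 to 9.59 in mock, all of it from Solyc06g051550.

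In root tips, 2 loci held most of the signal. Solyc12g011450 had 984 and 959 normalized counts on 2,4-D against 1193 and 1259 in mock, and its mock root mean was 72.5% of its mock leaf mean. Solyc01g105050 had 281 and 293 on 2,4-D against 379 and 393 in mock, and its mock root mean was 46.9% of that in leaf. Together they made up 93.9% and 77.9% of the summed level on 2,4-D and 95.1% and 86.5% in mock. In mock leaf the same pair held 6.83% to 7.58%. Although leaf still exceeded root for both (log2 fold change 0.46 ± 0.10 and 1.09 ± 0.11, SE, adjusted p = 0.002122 and 3.886e-06), they were the loci with the smallest leaf excess, and the next was Solyc06g069000 at 3.86.

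The other 39 loci were close to 0 in root, and their level followed the library number. Their sum was 82.0 and 355 normalized counts on 2,4-D and 81.5 and 257 in mock, so that library 2 was the higher in both groups. Library 2 exceeded library 1 in 29 of the 39 on 2,4-D and in 24 in mock, and was the lower in 3 and 6. The same counts were not made over all loci, so whether this is particular to these loci is not known. No single one of them went above 48.8 in any root library, and 24 of the 41 stayed under 10 in all 4. Marker lists also differed between root libraries. The 4 shoot meristem loci summed to 3.46 and 16.0 on 2,4-D and to 3.38 and 15.6 in mock, again higher in library 2. The 2 root iron uptake loci summed to 217 and 179 on 2,4-D and to 171 and 149 in mock. Nearly all of that came from Solyc06g051550, while Solyc02g069200 had 0 and 1.22 on 2,4-D and 0 in both mock libraries. The part of leaf or shoot material in these values was not tested.

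With 2,4-D, no change was called in root. Only 7 of the 41 loci reached the minimum in root, and by limma 0 of 7 were called, where 4.55% of all 12664 tested loci were, 3.48% higher and 1.07% lower. At an unadjusted p under 0.05 there were 3, against 16.3% of all. Without overlap, 2 of the 7 were lower and 1 higher, where 27.4% and 26.4% of all were, so that with 2 libraries a group the lack of overlap says little of these loci. The log2 fold change of Solyc01g105050 was -0.43 ± 0.12 (SE, adjusted p = 0.0681), and it fell with the root libraries fitted alone (adjusted p = 0.0463), where 3.26% of all tested loci fell and 5.75% rose. Solyc12g011450 had -0.34 ± 0.11 (SE, adjusted p = 0.145, and 0.0552 with root alone). The third, Solyc02g065400, had 23.0 and 28.2 on 2,4-D against 13.7 and 21.3 in mock (0.55 ± 0.19, SE, adjusted p = 0.1645). With root fitted alone its SE was 0.34 and its adjusted p 0.372. Without mock root library 2, which left 1 mock root library, its log2 fold change was 0.85. The other 4 had values of 5.22 to 47.8 on 2,4-D and 4.2 to 48.8 in mock, with groups that overlapped. With both libraries numbered 2 left out, a choice made after the data had been seen, 3 loci were tested and 0 called. Among the related lists in root, 1 of 4 tested carotenoid loci fell, and of the single tested chlorophyll and greening locus and the 2 tested morning-phased loci 0 changed. Of 4 tested evening-phased loci 1 rose.

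**Figure D4:**
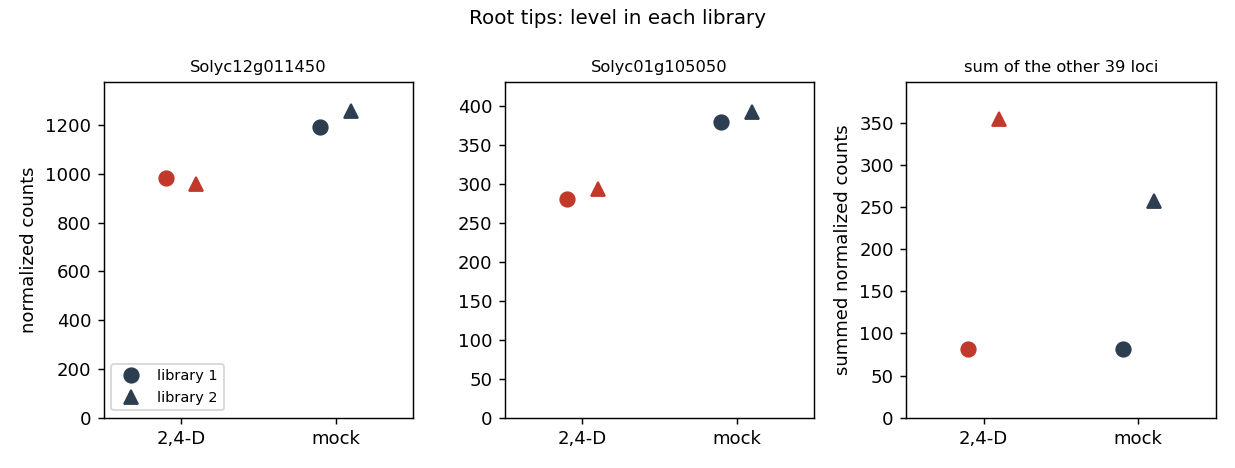
Normalized counts in the 2 libraries each of 2,4-D and mock root tips for Solyc12g011450 and Solyc01g105050, and the summed normalized counts of the other 39 loci; circles are library 1 and triangles library 2. Both single loci are lower on 2,4-D, and the sum of the other 39 is higher in library 2 of either group.

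Of the 7 loci tested in both tissues, the response differed between the experiments for 1, Solyc02g065400. Its log2 response was lower in leaf than in root by 1.31 (-1.31 ± 0.25, SE, adjusted p = 0.0131), where 3.76% of all 11313 loci tested were called, 2.2% lower in leaf and 1.56% higher. The SD of its log2 values within groups was 0.332 in root and 0.11 in leaf, so the shared spread was below that in root. Its root response had an SE of 0.19 in the shared fit and 0.34 with root fitted alone. At an unadjusted p under 0.05 there were 2 of the 7, against 17% of all. That call was lost without mock root library 1 (adjusted p = 0.0563), without 2,4-D library 2 (adjusted p = 0.0838) and without both root libraries numbered 2 (adjusted p = 0.0576). Solyc12g011450 had nearly equal responses, -0.32 in leaf and -0.34 in root, with a difference of 0.01 (adjusted p = 0.982, 95% confidence interval -0.31 to 0.33). Solyc01g105050 had -0.88 in leaf and -0.43 in root, a difference of -0.45 that was not called (adjusted p = 0.152, 95% confidence interval -0.78 to -0.11, not adjusted for the number of loci). Tissue, compound, plant age and growth conditions changed together between the experiments and cannot be told apart.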

How the data were processed

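The signal in the deposited table is a count per gene, normalized by the authors. The submitters' processing notes name Salmon 0.8.2 and DESeq2 but give them no role, and genome build and annotation were not given in the sources used here. Values under 10 lay near multiples of a step of 0.788 to 1.23, but 72.3% to 97.3% of them per library came out whole within 0.1 read, so reads were not recovered, no count test was run and depth in reads is unknown. log2(value + 1) of the deposited values was fitted with limma 3.58.1 (R 4.3.3, mean-variance trend), 1 mean per group over all 10 libraries, with 6 residual degrees of freedom. The trend was fitted on loci tested in either tissue, and p-values were adjusted over all loci tested in each comparison. On simulated data, 37% of 2-fold and 98% of 4-fold falls among 14206 leaf loci were recovered, and 30% and 96% among 12467 root loci. The simulation lowered only loci above a set mock level and gave every locus and library the same fixed dispersion. It did not copy the wide root spread of the loci described here, so these rates do not give the power for them.

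The loci and the lists were chosen with earlier results of these data known. Named loci were those called, the 10 of highest mean in a tissue, the nearest to the threshold on either side, and 3 at each end of the tissue comparison; others were chosen after their values were seen. Alternatives changed the pseudocount, minimum, scaling, moderation, block and libraries. No sequences are printed, since no table used here pairs these identifiers with sequences.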

Additional observations from a re-analysis of the deposited data

Results flagged for a closer look

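Solyc02g065400 was the locus whose responses differed between the experiments by a test of the difference itself. It stood at 688, 819 and 757 normalized counts under picloram against 1229, 1379 and 1239 in mock leaf, and at 23.0 and 28.2 on 2,4-D against 13.7 and 21.3 in mock root. The leaf response minus the root response was -1.313 on the log2 scale (limma, adjusted p = 0.0131). This call was lost in the 3 alternatives named above, each of which left out root libraries. In every library the treated values lay below mock in leaf and above mock in root. Groups of 2 and 3 libraries were too small for a search for single deviant libraries.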

How the results depend on the processing

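In leaf, the median log2 fold change of the tested loci stayed between -0.80 and -0.53 over the alternatives. The shared-fit counts of 8 that fell and 0 that rose became 14 and 1 with a pseudocount of 5, and 23 and 3 with each tissue fitted alone; 12 fell with both root libraries numbered 2 left out. Leaving out 1 library gave 2 to 11 that fell and 0 that rose. With leaf alone and 1 leaf library left out, 17 to 21 fell and 0 to 3 rose. Over all 14410 loci tested in leaf, 956 fell and 925 rose with a pseudocount of 5, and 712 fell and 780 rose with leaf alone. In root, 0 fell and 0 rose; 1 fell with root alone, and leaving out 1 library gave 0 that fell and 0 to 1 that rose. For the difference of responses, 1 was lower in leaf. This became 2 with no minimum, 0 with a minimum of 30 and 0 with both root libraries numbered 2 left out. Leaving out 1 library gave 0 to 1. The tissue comparison called 38 to 39 loci higher in leaf under every alternative run, and 39 of the 41 tested with no minimum. The summed level in leaf had a log2 ratio of -0.61, and -0.53 with equal library totals that leave out these loci; in root it was -0.27 and -0.26. No call reversed its sign.

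The labels do not say that replicate numbers pair libraries, and deviations of same-numbered libraries correlated at 0.0956, 0.00567 and 0.00188 in leaf and at 0.1 in root, so the numbers were not taken as pairs. Over the tested loci of this set alone the values were 0.316, -0.103 and 0.0442 in leaf and 0.968 in root. The root value rests on 7 loci, and with 2 libraries a group the value across numbers can only be its negative (-0.968). Over all loci, mock leaf library 1 correlated best with its own number, picloram library 1 (0.0956). Mock leaf library 2 correlated best with picloram library 1 (0.0308) and mock leaf library 3 with picloram library 2 (0.128), not with their own numbers. With the replicate block, 13 fell and 0 rose in leaf, 0 fell and 1 rose in root (Solyc07g047850, adjusted p = 0.0463), and 3 had the lower response in leaf. Over all loci tested with this block, 727 of 14410 fell and 664 rose in leaf, and 115 of 12664 fell and 404 rose in root. Of 11313 loci tested for the difference, 239 had the lower response in leaf. Levels under about 10 normalized counts, as for most of these loci in root, limit any statement on their root response.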
